A study of Homo sapiens with 24 samples.

Results

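The genes of the potassium, sodium and calcium channel families were taken from the deposited gene-level counts by name: KCN followed by letters and a number, SCN followed by a number and A or B, and CACN followed by letters or digits. The rule found 133 genes of 57820, 93 for potassium channels, 14 for sodium channels and 26 for calcium channels. RNA-seq had been run on U2OS, a human osteosarcoma cell line, and on AID-DIvA U2OS, a U2OS derivative that carries the inducible restriction enzyme AsiSI. Each line was studied as wild type (WT) and as an ID3 knockout (ID3-KO, here KO), with 3 biological replicates in each of 8 groups. U2OS cells were untreated or were collected after 24 h of mocetinostat, an inhibitor of class I histone deacetylases, before any recovery. AID-DIvA U2OS cells were untreated or had 24 h of mocetinostat and then 24 h in drug-free medium. The stage of collection and the cell line therefore coincide and cannot be told apart. The sources used here give no mocetinostat dose for these libraries, do not state whether AsiSI was induced in them, and do not say how many clones each knockout stands for.

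Ion channels of these families are membrane proteins whose pore-forming subunits let potassium, sodium or calcium pass, mostly in response to voltage, and whose accessory subunits tune trafficking and gating. Sodium and calcium channels start and shape action potentials in neurons and muscle, while potassium channels set the resting potential and end the spike. Cells that do not fire, tumour cells among them, also carry potassium and calcium channels, which take part in cell volume control, calcium entry and proliferation. Histone deacetylases remove acetyl groups from histones, and repressor complexes that hold neuronal genes silent in other cells recruit them.

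Library totals lay between 37878751 and 76906266 counts over the 24 libraries. In WT untreated U2OS, replicate 1 stood apart, with a chi-square per gene of 93.9 and 83.1 against replicates 2 and 3 and of 4.1 between those 2, and values without it are given where it decides a call or moves a value. KCNA2, a Shaker-type potassium channel, was at 1.56 CPM (counts scaled to the library's total) in that library and at 5.0 and 5.29 CPM in replicates 2 and 3, and SCN3A, a sodium channel pore, at 1.89, 5.06 and 5.65 CPM. ID3 was still counted in KO libraries, at 29.3 to 38.8 CPM in untreated KO cells of both lines and 47.9 to 80.7 CPM in untreated WT cells. Treated KO cells had 30.4 to 40.6 CPM before recovery and 61.1 to 67.3 CPM after it, and treated WT cells 77.6 to 89.3 and 102.6 to 128.8 CPM, and the protein was not measured here. Of 9 osteoblast-lineage markers, RUNX2, SPARC, SPP1 and COL1A1 were above 1 TPM (transcript level scaled by length and library total) in every group. SP7 was at most 0.0542 TPM in any group. The summed TPM of the 9 markers was 1820 to 1920 in untreated and 1300 to 1380 in treated WT U2OS libraries, with RUNX2 at 17.4 and 6.48 TPM, SPARC at 1011 and 691 TPM and IBSP at 0.0414 and 0.939 TPM. SPARC and COL1A1 made up most of each sum, while SPP1 rose from 41.9 to 91.8 TPM in WT and from 23.8 to 82.1 TPM in KO U2OS cells. By the rule given below, 2 of 8 markers tested before recovery were called higher and 1 lower in WT cells. In KO cells 3 of 8 were called higher and 0 lower, where all genes tested had 13.6% higher in WT and 14.6% in KO cells.

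Of the 133 channel genes, 105 had counts in every library and none was without counts in all 24. The filter on low counts left 95 in every one of the 9 comparisons made, and 16 in none (CACNA1S, CACNG1, CACNG4, KCND2, KCNE1, KCNE3, KCNG4, KCNJ13, KCNJ16, KCNK15, KCNK16, KCNK17, KCNK18, KCNK4, KCNS2 and SCN11A). A gene at zero in untreated cells enters a comparison only if its treated libraries are high. The overall counts before recovery, and those of the difference between stages, are therefore given both of the genes tested and of all 133. In the text, counts by class and in the other comparisons are of the genes tested only. A gene was called when its adjusted p was below 0.05 in the quasi-likelihood F-test of edgeR (Benjamini-Hochberg over all genes tested) and its log2 fold change was beyond 1. All called differences between 2 groups were without overlap of the libraries. The WT comparison before recovery, the untreated comparison of KO with WT and the interaction share the WT untreated libraries, so their values are set side by side and not combined.

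The channel genes of untreated cells were led by KCNN4 (chr19:44270685-44285409, GRCh37), the intermediate-conductance potassium channel that calcium opens through calmodulin. On the authors' TPM scale, which corrects for transcript length, it stood at 130 ± 12 (SD, n = 3) in WT U2OS, 116 ± 4.5 in KO U2OS, 93.8 ± 5.2 in WT AID-DIvA and 85.6 ± 11 in KO AID-DIvA cells. KCNH3, an ether-à-go-go family channel of the forebrain, came next in all 4 untreated groups, at 39.0 ± 3.4 and 38.8 ± 1.8 TPM in WT and KO U2OS and 31.8 ± 1.7 and 32.0 ± 4.5 TPM in WT and KO AID-DIvA cells. The gap between these 2 genes was larger than the spread of the replicates in each group. CACNB3, a cytoplasmic beta subunit of calcium channels, CACNA1H, the pore of a T-type calcium channel, and CACNG7, a gamma subunit that also binds AMPA receptors, were among the next 4 in each untreated group. In WT U2OS, CACNB3 was at 35.9 ± 1.8 TPM and CACNA1H at 30.6 ± 1.9 TPM, so CACNB3 lay within the spread of KCNH3. Averaged over the 24 libraries, the 12 highest genes included KCNN4, KCNH3, CACNG7, CACNA1H, CACNB3, KCNG1, KCNK1, KCNK5, KCNN1 and CACNB1. At least 1 TPM was reached by 64 genes in WT U2OS, 59 in KO U2OS, 59 in WT AID-DIvA and 57 in KO AID-DIvA cells.

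Before recovery, mocetinostat raised a large share of the channel genes in both genotypes. In WT cells 55 were called higher and 4 lower of 112 tested, 49.1% and 3.57% (41.4% and 3.01% of all 133), where the share over all 21797 genes tested was 13.6% higher and 5.06% lower. In KO cells 57 were called higher and 6 lower of 111 tested, 51.4% and 5.41% (42.9% and 4.51% of all 133), against 14.6% and 5.77% of all 21176 genes tested. The share called higher was well above the background in both genotypes and the share called lower was near it. Without replicate 1 of the WT untreated libraries, 55 genes were called higher and 5 lower in WT cells, and 55 of the 59 genes called with all libraries kept their call. The log2 fold changes of these 59 moved by at most 0.954, that of CACNA1F, and values without this library were 2.69 for KCNA1, 5.83 for KCNH4, 4.36 for KCNJ10, 4.13 for SCN4A, 3.75 for SCN1A, 4.32 for CACNG5, 2.45 for KCNJ2 and -1.27 for KCNN4. Among genes with a mean of at least 1 CPM, 39 of 84 channel genes (46.4%) were called higher in WT cells and 10.6% of all genes, and in KO cells 41 of 84 (48.8%) and 10.8% of all genes. The median log2 fold change of the channel genes tested was 1.02 in WT and 1.06 in KO cells, where all genes tested had 0.01 and 0.00, and setting genes without untreated counts at a lower bound left both medians at these values. In all, 48 genes, 36.1% of the 133, were called higher in both genotypes, and 4 were called lower in both.

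**Figure D1:**
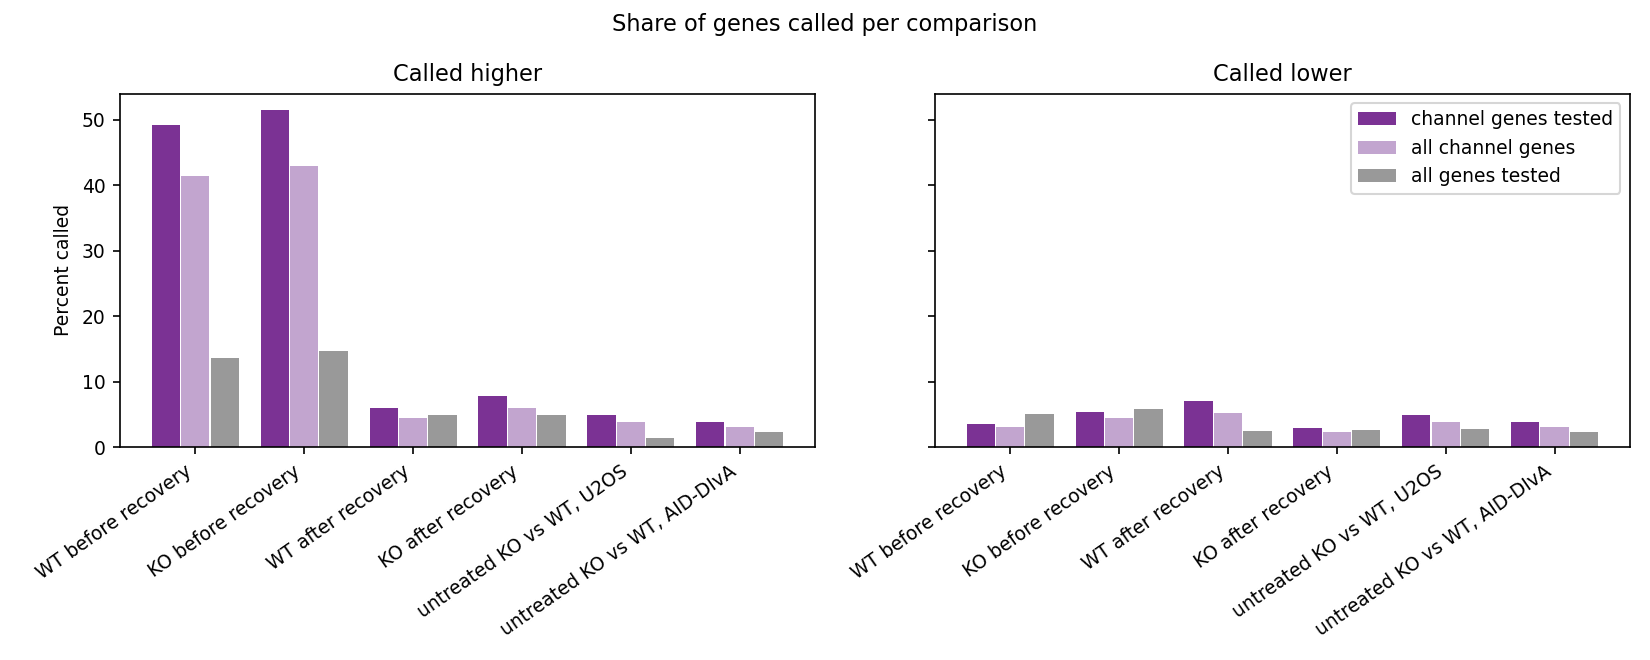
Percent of genes called higher (left) and lower (right) by edgeR in each comparison of 2 groups, for the channel genes tested, for all 133 channel genes and for all genes tested, with before recovery meaning U2OS and after recovery AID-DIvA U2OS. The channel bars stand at 49.1% and 51.4% called higher before recovery, against 13.6% and 14.6% of all genes tested, and at 6% and 7.84% after recovery, against 4.86% and 4.9%.

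The rise before recovery was seen in the pore-forming families of all 3 ions and in the auxiliary calcium subunits, with a smaller share called among the accessory potassium subunits. Over all genes tested, 13.6% in WT and 14.6% in KO cells were called higher. Of 30 genes for voltage-gated potassium pores, 17 of 29 tested were called higher in WT and 15 of 28 in KO cells, with 13 in both. Inward rectifiers had 7 and 9 of 13 tested called higher, the tandem-pore leak channels 6 and 7 of 10, and the calcium-activated and sodium-activated channels 4 and 3 of 8. The accessory potassium subunits had 2 of 10 in each genotype, with median log2 fold changes of 0.46 and 0.16, and the modifier subunits, which form no channel alone, 2 and 3 of 7. Sodium channel pores had 4 and 5 of 8 tested called higher and the beta subunits 1 of 4 in each. Calcium channel pores had 5 and 6 of 9, with medians of 2.11 and 1.92, and the auxiliary calcium subunits 7 and 6 of 14. Differences between classes were not tested. Members described below that fall outside the rule for named genes were chosen after their values were seen, to fill out the families.

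**Figure D2:**
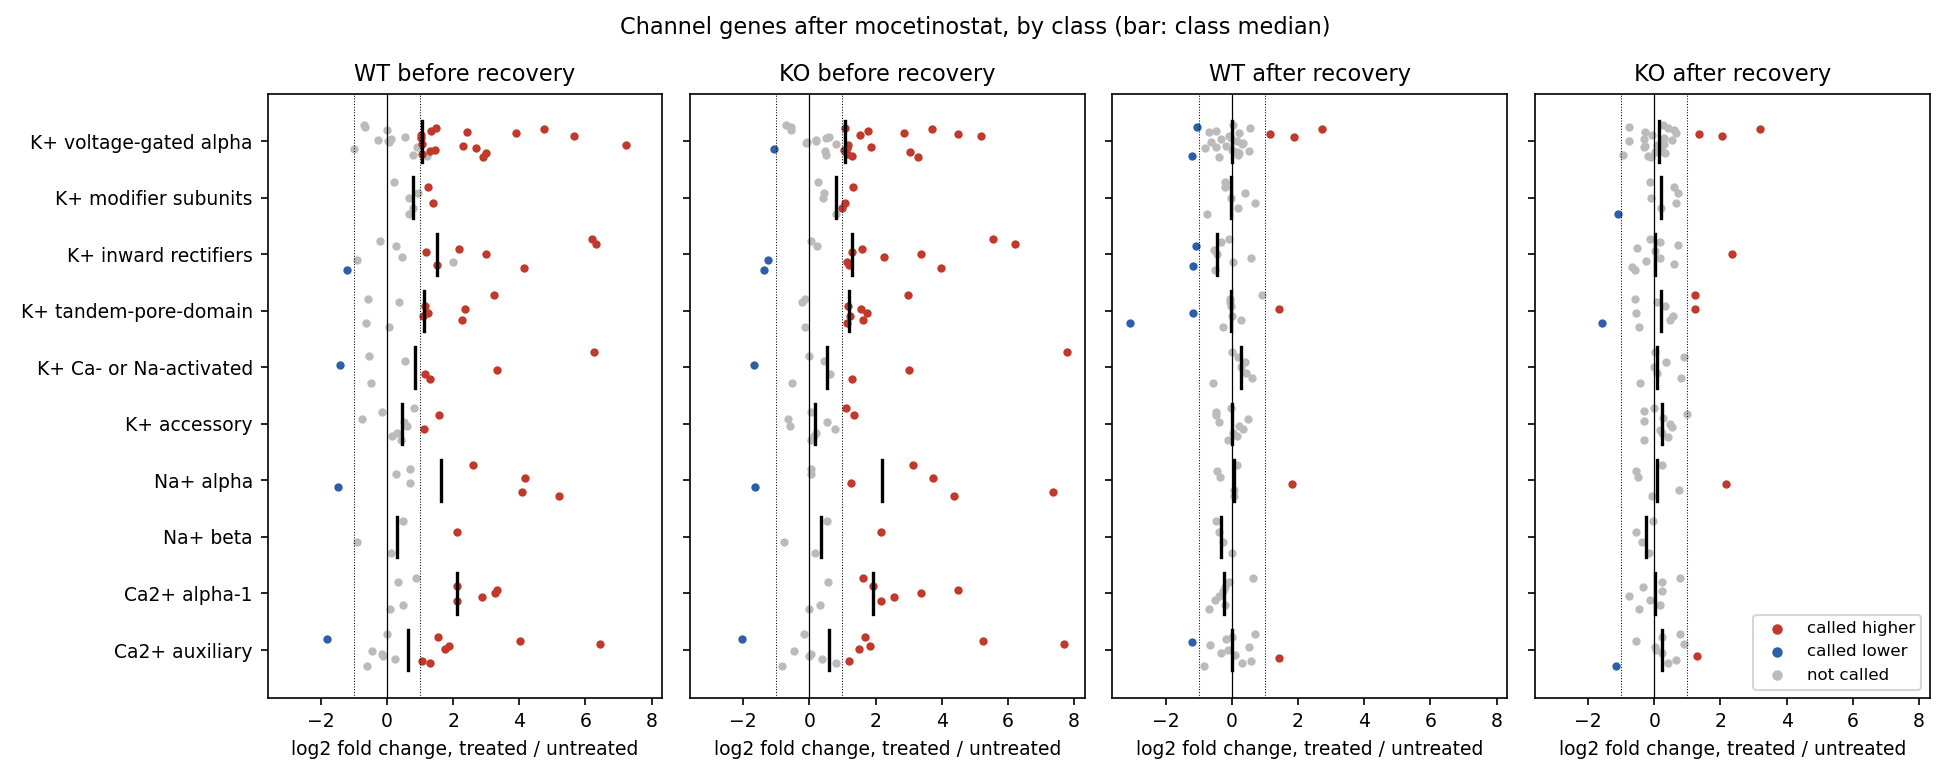
Log2 fold change of mocetinostat-treated over untreated cells (horizontal) for each channel gene tested, by class (vertical), in the 4 treatment comparisons. Red points were called higher, blue points lower and grey points not called, and black bars mark class medians. The medians of the calcium channel pores lie at 2.11 and 1.92 before recovery and at -0.24 and 0.03 after it, and the largest fitted values belong to genes with few or no untreated counts.

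The ether-à-go-go family (KCNH) held several of the largest rises. KCNH4, an elk-type channel, was at 0.263, 0.0826 and 0.341 CPM in untreated WT cells and at 10.8, 11.4 and 10.8 CPM in treated ones, a log2 fold change of 5.65 (SE 0.30, adjusted p = 6.16e-06). In KO cells the untreated libraries had 0.291, 0.270 and 0.214 CPM and the treated ones 9.45, 8.08 and 10.4 CPM. Untreated cells of both genotypes thus held KCNH4 near the detection limit and treated cells held it at about the same level in both. KCNH6, an erg-type channel, rose from 0.996 to 14.8 CPM on average in WT and from 0.314 to 7.12 CPM in KO cells, log2 fold changes of 3.90 and 4.49. KCNH7, KCNH8 and KCNH5 were called higher in both genotypes as well. Their log2 fold changes in WT and KO cells were 2.42 and 2.85 for KCNH7, 1.32 and 1.76 for KCNH8, and 1.02 and 1.54 for KCNH5, whose WT value was 0.87 and not called without replicate 1 of the untreated libraries.

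Among Shaker-related channels, KCNA1 (chr12:5019071-5040527), a delayed rectifier of axons, had the highest treated level. It stood at 5.85, 9.66 and 9.25 CPM in untreated WT cells and 58.6, 60.0 and 63.6 CPM in treated WT cells. Its KO values were 6.81, 6.86 and 6.65 CPM untreated and 67.3, 66.1 and 62.8 CPM treated. The treated libraries did not overlap with the untreated ones, and the log2 fold changes were 2.89 (SE 0.18) and 3.28 (SE 0.058). KCNA4, which gives a fast inactivating current, rose by 3.0 and 3.04 on the log2 scale, KCNC1, a fast delayed rectifier, by 2.30 and 1.18, and KCNQ3, a slowly activating channel, by 1.49 and 1.09.

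Inward rectifiers pass potassium inward more readily than outward, and KCNJ10 (chr1:160007257-160040038) is the form best known from glia. Its untreated WT values were 1.07, 0.634 and 0.853 CPM and its treated ones 15.6, 13.8 and 15.0 CPM. KO cells had 0.814, 0.843 and 0.998 CPM untreated and 13.2, 14.2 and 14.3 CPM treated. No treated library came near an untreated one in either genotype, with log2 fold changes of 4.14 (SE 0.18, adjusted p = 2.8e-06) and 3.97 (SE 0.10, adjusted p = 4.77e-19). KCNJ9, a subunit of the G protein-gated rectifiers, had 0.0155, 0.0826 and 0 CPM in untreated WT and 2.43, 3.06 and 2.87 CPM in treated WT cells, and its log2 fold changes were 6.19 (SE 0.46) and 5.55 (SE 0.35). They rest on 7 and 6 counts over the untreated WT and KO libraries, and leaving out a library gave 5.72 to 8.05 in WT, the highest without untreated replicate 2, and 5.04 to 6.43 in KO cells, the highest without untreated replicate 2. KCNJ6, another subunit of that channel, had 1 count over the 3 untreated libraries of each genotype and 108 and 109 counts over the treated ones, ratios of 107 (95% counting interval 18.8 to 4.26e+03) and 101 (17.8 to 4.03e+03). KCNJ2, a strong rectifier of heart and skeletal muscle, rose by 2.99 in WT and 3.37 in KO cells on the log2 scale. Counting intervals cover counting error only.

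Of the tandem-pore channels, which carry leak currents, KCNK9 and KCNK3, both closed by acid, were called higher in both genotypes, with log2 fold changes of 3.23 and 2.99 for KCNK9 and 2.36 and 1.56 for KCNK3. KCNK5, at a higher level, went from 14.0 to 31.2 CPM on average in KO cells and rose by 1.16 and 1.17 on the log2 scale. KCNK12 was also called higher, but 55% of its reads lay on the annotated strand, so reads of the opposite strand may enter its value, and the same holds for KCNG2 with 7.62% and KCNIP4 with 36%. Among calcium-activated channels KCNN3, a small-conductance channel, rose by 3.31 and 3.01. KCNU1, a sperm channel, had 1 count over the untreated WT libraries, 0 over the untreated KO libraries, and 106 and 85 counts over the treated ones, at least 26.3-fold higher in KO cells with the untreated group set at 3 counts.

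The sodium channel genes that rose were mostly those of excitable tissues. SCN4A (chr17:62015914-62050278), the pore of the skeletal muscle sodium channel, was at 0.387, 0.537 and 0.246 CPM in untreated WT and 7.10, 7.04 and 7.53 CPM in treated WT cells. In KO cells it was at 0.310, 0.270 and 0.374 CPM and then at 4.87, 4.01 and 3.74 CPM. Both differences exceeded the replicate spread, with log2 fold changes of 4.18 (SE 0.22, adjusted p = 5.98e-06) and 3.73 (SE 0.18, adjusted p = 2.82e-14). SCN9A, a pore of sensory neurons, was at 1.49, 2.92 and 1.74 CPM untreated and 12.3, 12.7 and 12.7 CPM treated in WT cells, and rose by 2.61 in WT and 3.12 in KO cells. SCN1A, a pore of inhibitory neurons, had a WT log2 fold change of 4.09 (SE 0.36; 4.74 without untreated replicate 3), and in KO cells 3 counts over the untreated and 595 over the treated libraries, a ratio of 184 (95% counting interval 62.6 to 894). SCN10A rose from 3 to 128 counts over the WT libraries, a ratio of 42.2 (14.1 to 208). SCN3B, a beta subunit, rose by 2.12 and 2.18.

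Calcium channel pores of the T, L and R types were among those called higher. CACNA1H, the T-type pore at the highest level, was called in neither genotype. It was at 78.9 and 98.7 CPM on average in untreated and treated WT cells and at 58.7 and 86.0 CPM in KO cells. The pores CACNA1A and CACNA1B were not called higher either. CACNA1G (chr17:48638429-48704835), a T-type pore that opens near the resting potential, was at 13.4, 18.6 and 17.4 CPM in untreated WT cells and 69.8, 73.4 and 68.7 CPM in treated ones. KO cells had 22.3, 20.3 and 22 CPM untreated and 80.4, 77.2 and 86.1 CPM treated. The lowest treated library was above the highest untreated one in each genotype, with log2 fold changes of 2.11 (SE 0.12) and 1.92 (SE 0.055). CACNA1C and CACNA1D, the L-type pores of heart and endocrine cells, rose by 2.13 and 2.16 and by 2.86 and 2.55, and CACNA1E, an R-type pore, by 3.25 and 3.38. CACNA1F, the L-type pore of photoreceptors, rose by 3.32 (4.27 without untreated replicate 1) and 4.49 but stayed below 1.2 CPM in every library. Among the gamma subunits, CACNG5 went from 0.384 to 6.07 CPM on average in WT and from 0.143 to 5.49 CPM in KO cells, and CACNG7 from 21.6 to 62.5 and from 23.6 to 74.6 CPM. CACNG7 was the highest channel gene of treated U2OS cells on the TPM scale, at 79.96 ± 2.1 in WT and 92.3 ± 4.0 in KO cells. CACNG3 had no count in untreated KO libraries and 80 in treated ones, at least 24.7-fold higher with the untreated group set at 3 counts.

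KCNN4, SCN2A, CACNG6 and KCNJ1 were called lower in both genotypes. KCNN4 was at 156, 119 and 118 CPM in untreated WT cells and 48.1, 49.0 and 49.1 CPM in treated ones. In KO cells it fell from 118, 114 and 114 CPM to 37.9, 33.6 and 37.6 CPM. The log2 fold changes were -1.42 (SE 0.12, adjusted p = 6.5e-05) and -1.66 (SE 0.051, adjusted p = 5.45e-18), and on the TPM scale KCNN4 was no longer the highest channel gene: CACNG7 and KCNH3 stood above it in both genotypes, and it was at 53.1 ± 1.4 TPM in WT and 38.3 ± 2.2 TPM in KO cells. SCN2A, a pore of excitatory neurons, had log2 fold changes of -1.48 and -1.64, against the direction of the other sodium channel pores called. CACNG6, a gamma subunit, was at 7.99, 5.94 and 4.87 CPM in untreated WT cells and at 1.80, 2.06 and 1.54 CPM in treated ones. KCNJ1, at a mean of 0.289 CPM in the KO comparison, had log2 fold changes of -1.22 and -1.36. Its WT call was lost with DESeq2, with library totals in place of TMM, with the replicate number as a block and without 3 of the 6 libraries in turn. KCNJ14 and KCNA7 were called lower in KO cells, at -1.24 and -1.07 on the log2 scale, and had -0.91 and -0.997 in WT cells, and 6.1% of the KCNA7 reads lay on the annotated strand.

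**Figure D3:**
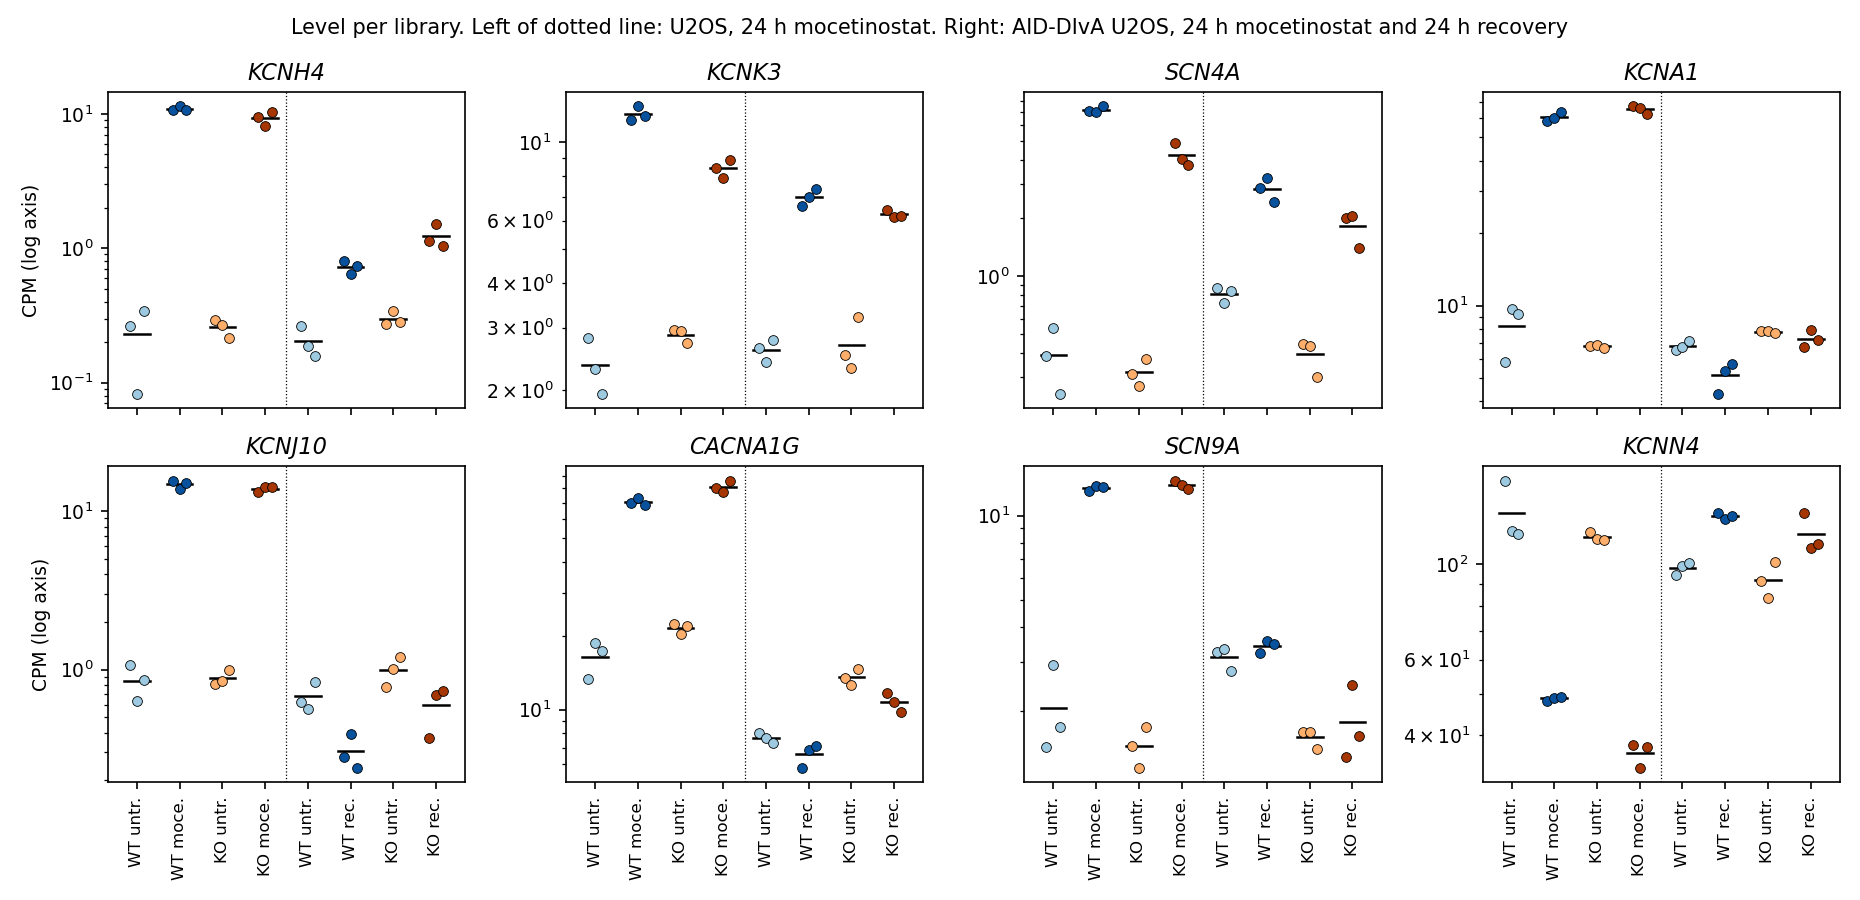
Level in CPM (log axis) of 8 channel genes in each of the 24 libraries, with dots for libraries and bars for group means. In each panel the left side holds U2OS cells, untreated or after 24 h of mocetinostat, and the right side AID-DIvA U2OS cells, untreated or after 24 h of recovery. KCNH4, KCNK3 and SCN4A stay above untreated cells after recovery, while KCNA1 stands at 58.6 to 67.3 CPM in treated U2OS and 4.30 to 7.90 CPM in recovered AID-DIvA cells.

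Summed over the 133 genes, the authors' TPM rose from 611 ± 24 (SD, n = 3) to 948 ± 17 in WT U2OS and from 613 ± 16 to 923 ± 33 in KO U2OS cells. In AID-DIvA cells the sum was 470 ± 10 untreated and 474 ± 24 after recovery in WT, and 484 ± 40 and 511 ± 18 in KO cells. The treated and untreated libraries did not overlap before recovery, and those of each genotype overlapped after it. Genes at 1 TPM or more went from 64 to 84 and from 59 to 85 before recovery, and from 59 to 62 and 57 to 58 after it.

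After recovery few channel genes differed from untreated cells. In WT AID-DIvA cells 6 were called higher and 7 lower of 100 tested, against 4.86% and 2.52% of all 20289 genes tested. In KO AID-DIvA cells 8 were called higher and 3 lower of 102 tested, against 4.9% and 2.56% of all 20362 genes tested. These shares, 6% and 7.84% higher and 7% and 2.94% lower, lay near the background apart from the lower calls in WT cells. The medians of the channel genes tested were -0.03 and 0.15, where all genes tested had 0.00 and -0.02. Without the threshold on the fold change, 20 genes were higher and 26 lower in WT cells and 35 and 20 in KO cells.

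The 6 genes called higher after recovery in both genotypes included SCN4A, KCNH4, KCNH6, KCNK3 and CACNA2D4, and all but CACNA2D4 had also been called higher before recovery in both. SCN4A was at 0.869, 0.722 and 0.838 CPM untreated and 2.86, 3.20 and 2.43 CPM after recovery in WT cells, and its log2 fold changes were 1.81 (SE 0.15, adjusted p = 6.78e-07) and 2.18 (SE 0.21, adjusted p = 4.21e-05). KCNH4 had 1.88 and 2.06, KCNH6 1.16 and 1.34, and KCNK3 1.43 and 1.24, and the fold of KCNH6 in WT cells fell to just below the threshold when replicate 3 of the untreated libraries was left out. CACNA2D4, an alpha-2/delta subunit of retina, was at 3.23, 3.62 and 2.93 CPM untreated and 11.3, 7.23 and 7.36 CPM after recovery in WT cells, a log2 fold change of 1.42, with 1.30 in KO cells. KCNJ15, an inward rectifier of kidney, and KCNK9 were called higher in KO cells, where KCNJ15 went from 0.120, 0.191 and 0.189 CPM to 0.969, 0.876 and 0.781 CPM.

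The 250 bases before the annotated start are shown for the genes called higher in both genotypes at both stages that had an entry in the RefSeq promoter table (build GRCh38.p14), so that their base composition can be seen beside their values. Each sequence was found at 1 place in GRCh37, the build of the counts. Capitals mark the GC box GGGCGG or its reverse complement, a site read by Sp factors, and the 9 letters TTCAGCACC or their reverse complement, the left part of the element bound by the repressor REST. SCN4A had no entry.
KCNH4, chr17:40333161-40333410, minus strand: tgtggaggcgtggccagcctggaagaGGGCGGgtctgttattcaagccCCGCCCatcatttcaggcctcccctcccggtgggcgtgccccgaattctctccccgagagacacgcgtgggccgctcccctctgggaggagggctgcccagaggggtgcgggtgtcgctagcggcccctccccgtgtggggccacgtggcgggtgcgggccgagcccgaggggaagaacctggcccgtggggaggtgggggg
KCNH6, chr17:61600469-61600718, plus strand: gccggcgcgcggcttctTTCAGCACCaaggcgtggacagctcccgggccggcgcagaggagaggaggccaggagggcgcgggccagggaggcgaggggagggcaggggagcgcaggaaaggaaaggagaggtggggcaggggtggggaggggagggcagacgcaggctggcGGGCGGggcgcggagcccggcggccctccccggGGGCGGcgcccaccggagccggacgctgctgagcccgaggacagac
KCNK3, chr2:26915340-26915589, plus strand: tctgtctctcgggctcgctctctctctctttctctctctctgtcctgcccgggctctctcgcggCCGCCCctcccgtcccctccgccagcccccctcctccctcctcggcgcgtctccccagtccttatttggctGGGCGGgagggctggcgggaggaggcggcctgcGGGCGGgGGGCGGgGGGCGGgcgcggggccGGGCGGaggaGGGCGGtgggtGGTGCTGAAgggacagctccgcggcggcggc
KCNH4 held 2 GC boxes, KCNH6 held 2 and KCNK3 held 7, and KCNH6 and KCNK3 held the 9 letters once each. The window starts from RefSeq's start site, which for KCNH4 and KCNH6 lies inside the gene as the annotation of the counts has it.

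Of the 133 channel genes, 95 had an entry in that table, 31 of the 48 called higher in both genotypes before recovery among them. The GC box was present in 22 of these 31 windows (71%), in 33 of the other 64 channel genes (51.6%) and in 42.3% of all 27305 windows, both strands searched. The median GC content was 72.4%, 63.8% and 58% in the same order. The letters TTCAGCACC were present in 3 of the 31 (KCNH6, KCNK3 and CACNG3), in 0 of the 64 and in 0.3% of all windows. An E-box, CANNTG, the motif of the E proteins that ID3 binds, was present in 15 of the 31 (48.4%), in 42 of the 64 (65.6%) and in 62.2% of all windows. TATAAA was present in 1 of the 31, 6 of the 64 and 11.1% of all windows. The 64 include genes that the filter on low counts left in no comparison, such as KCNJ13, KCNJ16 and KCNK16, and that could not be called. The 31 and the 64 therefore differ also in whether a gene could be called at all. These are matches of letters in a window, given with no test.

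KCNK10 was called lower after recovery in both genotypes. This tandem-pore channel of the TREK group (chr14:88649113-88793251) was at 3.15, 2.49 and 2.80 CPM in untreated WT AID-DIvA cells and 0.263, 0.414 and 0.331 CPM after recovery. In KO cells it was at 0.670, 0.424 and 0.415 CPM and then at 0.228, 0.106 and 0.195 CPM. Both comparisons were without overlap, with log2 fold changes of -3.06 (SE 0.19, adjusted p = 3.2e-08) and -1.59 (SE 0.35, adjusted p = 0.00521), and the KO libraries rest on few counts. KCNA2, a Shaker-type channel, and KCNK2, another TREK channel at a mean of 0.818 CPM over the 6 libraries, were called lower in WT cells, with log2 fold changes of -1.21 and -1.16. CACNG5, KCNJ10 and KCNJ4 were lower in WT cells too, at levels between 0.0921 and 0.838 CPM. Their calls ended without recovery replicate 2 for CACNG5, without untreated replicate 3 for KCNJ10, and without either recovery replicate 1 or untreated replicate 3 for KCNJ4. In KO cells CACNA2D1, the alpha-2/delta subunit that gabapentin binds, went from 29.7, 26.7 and 25.1 CPM to 9.58, 13.2 and 13.5 CPM, and KCNF1, a modifier subunit, had a log2 fold change of -1.10, a call that ended without recovery replicate 1. Of the 48 genes called higher in both genotypes before recovery, 38 were called in neither genotype after recovery and 4 (CACNG5, KCNJ10, KCNJ4 and KCNK2) were called lower in WT cells.

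The difference between the response before and after recovery was tested in a single fit over all 24 libraries, averaged over genotypes. It was larger before recovery for 74 channel genes and smaller for 15 of 117 tested, 63.2% and 12.8%, where all 23087 genes tested had 29.6% and 27.9%. All 9 calcium channel pores tested and 21 of 29 voltage-gated potassium pores were among the 74. KCNA1 had a difference of 3.33 on the log2 scale (SE 0.12, adjusted p = 9.34e-18), since its log2 fold changes after recovery were -0.40 and -0.09. KCNJ10 had 4.98, CACNA1C 2.47, CACNA1G 2.29 and KCNC1 2.11. KCNN4 had -1.92 (SE 0.089, adjusted p = 9.66e-16), with log2 fold changes of 0.41 and 0.35 after recovery. The stage and the cell line cannot be told apart in these differences.

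Untreated KO and WT cells differed in few channel genes. In U2OS 5 were called higher and 5 lower in KO cells of 102 tested, 4.9% each, against 1.42% and 2.84% of all 20621 genes tested. In AID-DIvA U2OS 4 were called higher and 4 lower of 103 tested, 3.88% each, against 2.27% and 2.3% of all 20441 genes tested. KCNK10 was the lowest against WT in both lines: in U2OS it was at 6.08, 6.78 and 7.83 CPM in WT and 1.51, 1.53 and 1.94 CPM in KO cells. Its log2 differences were -2.05 (SE 0.15, adjusted p = 0.000231) in U2OS and -2.51 (SE 0.17, adjusted p = 1.59e-08) in AID-DIvA cells. Without replicate 1 of WT untreated U2OS the U2OS value of KCNK10 was -2.13, and 4 genes were called higher and 6 lower.

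CACNA2D4, KCNIP1 and KCNA10 were called in the same direction in both lines as well. CACNA2D4 was at 5.91, 5.92 and 5.57 CPM in WT and 2.17, 2.06 and 1.87 CPM in KO U2OS cells, with log2 differences of -1.52 and -1.20 in the 2 lines. KCNIP1, a calcium-binding partner of A-type channels, was higher in KO cells by 1.99 and 1.64, at or below 1.08 CPM in untreated libraries, and 72.1% of its reads lay on the annotated strand. KCNA10, a Shaker-related channel, was below 1 CPM in untreated libraries, with 2.08 and 3.11. Further calls in U2OS were KCNC1 higher and KCNH6, KCNB2 and CACNA1I lower in KO cells, and those in AID-DIvA cells were KCNJ12 higher and KCNJ5 and SCN4A lower. KCNA10, KCNB2 and KCNJ12 fall outside the rule for named genes and were named after their values were seen, because the counts are small. Leaving out replicate 1 of WT untreated U2OS ended the KCNC1 call, and leaving out other single libraries ended those of KCNA10 and KCNB2 in U2OS and of SCN4A and KCNJ12 in AID-DIvA cells. KCNJ12 has a near-identical copy in the genome and its count is uncertain.

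**Figure D4:**
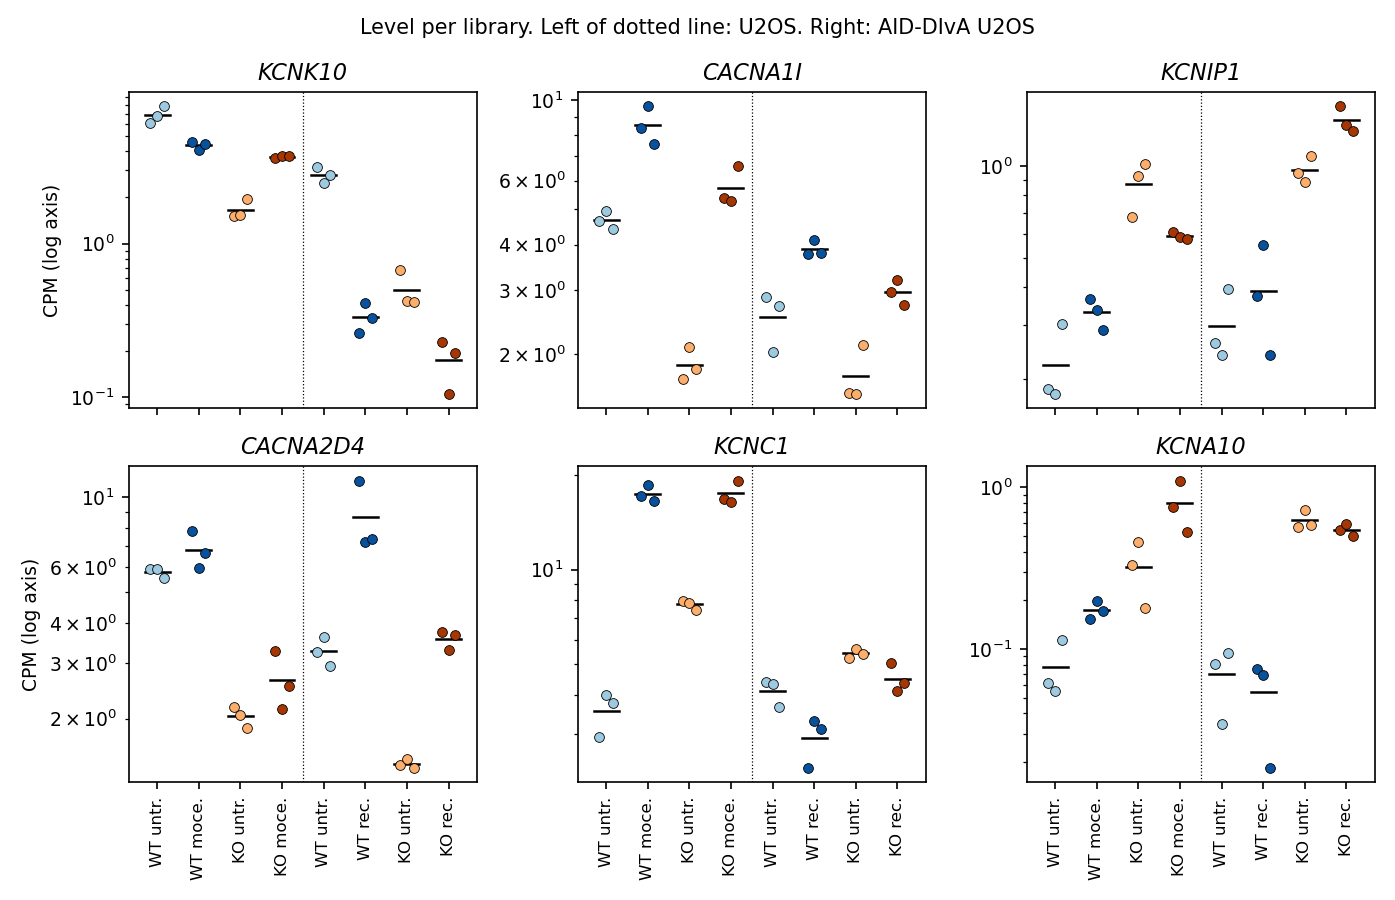
Level in CPM (log axis) of 6 channel genes in each of the 24 libraries, U2OS on the left and AID-DIvA U2OS on the right of each panel, with dots for libraries and bars for group means. KCNK10 and CACNA2D4 lie lower, and KCNIP1 and KCNA10 higher, in untreated KO than in untreated WT cells of both lines.

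The genotype by treatment interaction asked whether KO cells responded differently from WT cells. Larger and smaller refer here and below to the signed log2 response, so a fall counts as smaller than a rise. Before recovery 2 channel genes had a larger response in KO cells and 6 a smaller one of 116 tested, 1.72% and 5.17%, against 1.1% and 1.06% of all 22647 genes tested. KCNK10 had an interaction of 1.79 (SE 0.17, adjusted p = 5.64e-05): treated WT cells had 4.60, 4.09 and 4.48 CPM, below their untreated level, and treated KO cells 3.60, 3.72 and 3.74 CPM, above theirs. Treatment thus brought the genotypes, 4.14-fold apart when untreated, to close levels. The smaller responses in KO cells included those of KCNC1 (-1.11, SE 0.14), KCNK3 (-0.79), KCNK6 (-0.59) and CACNA2D2 (-0.49), and CACNA1I had 0.76. With a library left out in turn, the calls of KCNK3 and KCNK6 were lost in 6 of 12 fits each, and those of CACNA1I and CACNA2D2 in 10 of the 19 alternatives run for each. KCNC1 began higher in untreated KO cells. Leaving out replicate 1 of WT untreated U2OS gave 10 and 13 genes, with -0.99 for KCNC1, 1.87 for KCNK10, -0.93 for KCNK3 and -0.53 for KCNK6. After recovery 1 of 107 tested, SCN3A, had a larger response in KO cells and 0 a smaller one, against 0.762% and 0.451% of all 21265 genes tested. SCN3A went from 2.87, 2.92 and 2.76 CPM to 4.13, 5.09 and 4.92 CPM in KO cells and stayed between 4.72 and 5.66 CPM in recovered WT cells, an interaction of 0.67 (SE 0.15, adjusted p = 0.0388). That call was lost in 10 of 12 fits with a library left out.

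Of 69 genes for other cation channels, among them TRP, HCN, ASIC and ryanodine receptor channels, 14 of 58 tested (24.1%) were called higher in WT and 16 of 57 (28.1%) in KO cells before recovery. After recovery 5 of 54 (9.26%) and 4 of 53 (7.55%) were called higher. Over all genes tested the shares called higher in WT and KO cells were 13.6% and 14.6% before recovery and 4.86% and 4.9% after it. Markers of excitable cells moved in the same comparisons. Of 8 neuron markers 4 were called higher in WT and 6 in KO cells before recovery and 3 in each after recovery, and their summed TPM was 102 to 107 in untreated and 265 to 281 in treated WT U2OS libraries, and 109 to 113 and 303 to 323 in KO. After recovery the sums were 134 to 153 in WT and 165 to 168 in KO cells, against 93.7 to 96.7 and 95.4 to 101 untreated. NEFL, a neurofilament, made up most of each sum, and SYP, a synaptic vesicle protein, went from 8.49 to 63.4 TPM on average in WT U2OS. TUBB3, also on the neuron list, did not share this rise. At the higher of its entries it went from 6.296 to 6.603 TPM in WT and from 6.411 to 5.003 TPM in KO U2OS cells. In AID-DIvA cells it went from 5.755 to 3.529 TPM in WT and from 5.244 to 2.854 TPM in KO. No neuron marker was called lower in these treatment comparisons. Of 10 heart and skeletal muscle markers 6 were tested before recovery and 3 were called higher and 1 lower in each genotype, with a summed TPM of 4.92 to 5.31 in untreated and 13.4 to 14.0 in treated WT U2OS libraries. TNNT2, cardiac troponin T, was at 1.22 and 0.163 TPM in these groups. The muscle sums were lower after recovery, at 5.33 to 5.60 against 6.20 to 6.64 untreated in WT and 6.12 to 6.73 against 9.12 to 10.1 in KO cells. TNNT2 went from 2.61 to 0.181 TPM in WT and from 6.27 to 0.749 TPM in KO AID-DIvA cells. CKM rose there from 0.238 to 1.03 and from 0.262 to 1.72 TPM. Of 6 muscle markers tested after recovery, 1 was called higher in WT and 2 in KO cells, and 1 lower in each. STMN2 was at 0.0827 TPM in untreated and 17.6 TPM in treated WT U2OS, and MYOG, which drives muscle differentiation, had no count in 7 of the 8 groups. The part of these changes in the channel genes' values was not tested. In bulk RNA more cells with a transcript and more transcript per cell cannot be told apart.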

How the data were processed

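Total RNA was sequenced by the authors from 24 libraries of U2OS and AID-DIvA U2OS cells (TruSeq Stranded Total RNA, paired ends, Illumina NovaSeq). Reads were aligned with STAR to hg19/GRCh37 and assigned to genes with featureCounts in the Roddy workflow; the versions are not given in the sources used here. The deposited counts per gene are whole and not normalized, and are taken over both strands. The TPM values were deposited by the authors, scaled by exonic length and to the same total in each library; a TPM column without a constant total was not used. Groups follow the sample titles and descriptions, since the treatment field of the AID-DIvA samples contradicts them, and the stage at collection was read from the design text and methods.

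Counts were fitted with edgeR 4.0.16 in R 4.3.3 (TMM, filterByExpr, robust quasi-likelihood), each comparison of 2 groups on its own libraries, interactions on 4 groups and the response difference on all 24 libraries. P-values were adjusted by Benjamini-Hochberg over all genes tested. A call needed an adjusted p below 0.05 and, between 2 groups, a log2 fold change beyond 1. CPM values use TMM over all libraries. P-values measure the spread between 3 biological replicates. The fits were tested on simulated data. Alternatives were DESeq2 1.42.0, other filters and scalings, reverse-strand counts, a replicate block and leaving out each library.

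Named genes were the largest calls with a mean of at least 0.5 CPM and no overlap (up to 12 per treatment comparison and up to 6 per untreated comparison), up to 6 per interaction or response difference by adjusted p, and the 12 highest by TPM. The members, lists and rules were chosen with earlier results of these data known. Some genes that the rule names are not reported here, while counts and medians include them.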

Additional observations from a re-analysis of the deposited data

Results flagged for a closer look

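Several effects of mocetinostat differed between genotypes or between stages by a test of the difference itself (edgeR quasi-likelihood, Benjamini-Hochberg adjusted). Before recovery the log2 response of KCNK10 was larger in KO than in WT cells by 1.79 (SE 0.172, adjusted p = 5.64e-05). The signed log2 responses of KCNC1 (-1.11), KCNK3 (-0.788) and KCNK6 (-0.588) were lower in KO cells, with adjusted p between 0.000738 and 0.0207. After recovery the response of SCN3A was larger in KO cells by 0.671 (adjusted p = 0.0388). The SCN3A call was lost in 10 of 12 fits with a library left out and with the replicate number as a block (adjusted p = 0.0548), and the KCNK3 and KCNK6 calls were lost in 6 of 12 such fits each.

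Between the stages, averaged over genotypes, the response before recovery exceeded that after it by 4.98 for KCNJ10, 3.33 for KCNA1, 2.47 for CACNA1C, 2.29 for CACNA1G and 2.11 for KCNC1 on the log2 scale. KCNN4 had -1.92, lower with treatment before recovery and slightly higher after it. The cell line and the stage cannot be told apart in these 6 values.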

How the results depend on the processing

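Among the genes that the naming rule picked, no value changed direction under the alternatives run. Of these values, 1035 kept their side of the threshold while 29 lost it, and other genes are not in this tally. The counts of channel genes called were less stable: 276 stayed near the main count and 42 moved away from it, some of which follow. Without the fold threshold, higher and lower counts were 20 and 26 in WT and 35 and 20 in KO cells after recovery, 13 and 11 in untreated U2OS and 29 and 20 in untreated AID-DIvA cells, and the lower counts before recovery were 14 in WT and 16 in KO cells. DESeq2 gave 10 higher in WT after recovery, 4 larger responses in the U2OS interaction and 2 in the AID-DIvA interaction. With no filter on low counts these were 11, 4 and 6. Reverse-strand counts gave 3 in the AID-DIvA interaction, a minimum of 10 counts in every library left 2 higher in untreated AID-DIvA cells, and fitting all 4 U2OS groups gave 8 lower in untreated U2OS.

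Replicates with the same number did not deviate together (correlations from -0.394 to 0.272 over the comparisons of 2 groups), so the numbers do not pair the samples. With the replicate number as a block, the AID-DIvA interaction had 0 larger responses, with SCN3A at an adjusted p of 0.0548, and the U2OS interaction had 1.

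Leaving out each library in turn gave 0 to 1 larger responses in the AID-DIvA interaction, and 1 to 10 larger and 3 to 13 smaller ones in the U2OS interaction. The 10 and 13 came from leaving out WT untreated U2OS replicate 1, which also ended the KCNC1 call in untreated U2OS; the cause was not tested. The interactions of KCNK3 and KCNK6 lost their calls in 6 settings each, and those of CACNA1I and CACNA2D2 in 10 of 19 each. Depth limits genes such as KCNC2 and CACNG3, with no count in some untreated groups.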
